A study of Mus musculus with 12 samples.

Results

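Complex I subunits were followed across whole mouse hearts that expressed a dominant-negative form of the mitochondrial calcium uniporter (DN-MCU) and the hearts of wild-type (WT) littermates. The subunits were taken by name, as every gene symbol made of Nduf, one of the letters a, b, c, s or v, and a number, on probe sets annotated with a single gene. Assembly factors, whose symbols begin with Ndufaf, do not match. Each gene was read by its probe set with the highest mean over the 12 arrays, a choice that uses no difference between groups. This gave 35 of the 18193 genes with such a probe set, read by 73 probe sets in all, and 19 of the 35 genes had more than 1. Both Ndufa4, now assigned to cytochrome c oxidase, and its relative Ndufa4l2 match by name only and are kept apart in the description by module. Ndufs6 and Ndufa11 are not analysed here, because no probe set annotated with either gene alone was at hand.

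Complex I, NADH:ubiquinone oxidoreductase, takes electrons from NADH, passes them to ubiquinone and pumps protons across the inner mitochondrial membrane. It is shaped like an L. A peripheral arm in the matrix holds the N module, which oxidizes NADH, and the Q module, which reduces ubiquinone, and a membrane arm holds the proton pumps. The core of the peripheral arm is encoded by nuclear Nduf genes and the core of the membrane arm by mitochondrial DNA, and many accessory subunits surround both. In the heart the complex carries most of the electron flow from NADH, and the tissue's dense mitochondria give its transcripts some of the strongest signals on an array.

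The groups were DN-MCU adults, WT adults, DN-MCU neonates and WT neonates, with 3 arrays each, all from the outbred CD1 stock. Adults were 42 days old and labelled male, neonates were given an age of 1 day and no sex. The promoter that drives DN-MCU, and the number of founder lines, are not stated in the labels. With so few arrays a group the precision is limited, and the p-values measure the spread between arrays labelled as biological replicates.

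Promoter sequence is shown for the ends of the age pattern described below. Ndufs3 and Ndufa9 are the 2 subunits with the smallest p among those that were higher in WT adults than in WT neonates and held a searched motif in the stretch shown, and Ndufc2 and Ndufb6 are the 2 with negative age differences. Each stretch is the 100 bases before the annotated start, on the strand of the gene, from RefSeq in build GRCm38.p6. Motifs of 3 factors or families known to act on respiratory chain genes were searched on both strands, the NRF1 core TGCGCA, the ETS core CCGGAAG and the ERR core AAGGTCA, none of which contains another, and capitals mark a match. Ndufs3 lies at chr2:90904722-90904821 (minus strand), Ndufa9 at chr6:126849145-126849244 (minus), Ndufc2 at chr7:97399903-97400002 (plus) and Ndufb6 at chr4:40279422-40279521 (minus).
Ndufs3: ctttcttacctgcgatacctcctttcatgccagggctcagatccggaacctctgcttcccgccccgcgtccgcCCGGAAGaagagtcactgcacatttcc
Ndufa9: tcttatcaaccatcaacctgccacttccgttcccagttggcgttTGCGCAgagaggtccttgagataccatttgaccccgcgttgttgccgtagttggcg
Ndufc2: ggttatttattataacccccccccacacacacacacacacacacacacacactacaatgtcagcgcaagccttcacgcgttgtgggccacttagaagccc
Ndufb6: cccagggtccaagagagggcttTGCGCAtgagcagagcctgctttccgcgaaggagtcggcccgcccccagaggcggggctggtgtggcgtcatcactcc

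The stretch of Ndufs3 holds an ETS core and that of Ndufa9 an NRF1 core, a match that the choice of these 2 required. That of Ndufb6 holds an NRF1 core and that of Ndufc2 none of the 3 motifs. Over windows of 300 bases, 250 before and 50 after the start, 31 of the 35 subunits were matched in the promoter table. The NRF1 core stood in 9 of them (29.0%), against 8.1% of 27018 promoters in the table. The ETS core stood in 4 (12.9%, against 9.1%) and the ERR core in 3 (9.7%, against 4.7%). A motif match describes letters in the window and is not a measured binding site.

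Mcu itself was checked against the labels first. Its probe set 1442031_at read 8.85, 9.64 and 10.41 in DN-MCU adults, against 4.55, 2.45 and 3.06 in WT adults, on the log2 scale. In neonates it read 8.73, 8.44 and 9.28 in DN-MCU hearts, against 2.90, 3.31 and 3.24 in WT hearts, so on this probe set every array matched its label. A second Mcu probe set, 1453166_at, did not separate the genotypes, with 7.39, 7.54 and 8.14 in DN-MCU adults, against 7.84, 7.72 and 7.41 in WT adults, and 7.91 to 8.03 in DN-MCU neonates, against 7.70 to 8.18 in WT neonates. The 11 cardiomyocyte markers averaged 14.86, 14.74 and 14.72 in DN-MCU adults and 14.70, 14.85 and 14.95 in WT adults, and 14.73 to 14.86 in all neonates. The adult arrays were less alike than the neonatal ones. On the second principal component DN-MCU adult 3 was placed at 121.4 and the other 11 arrays between -50.9 and 24.4. The control probe sets of the array averaged 9.82 on DN-MCU adult 3 and 8.45 to 8.84 on the other 11. The 6 adipocyte markers averaged 5.24 on it, against 7.49 and 8.63 in the other DN-MCU adults and 7.03 to 8.06 in WT adults. DN-MCU adult 1 held thymus markers at a mean of 5.98, with the lymphocyte gene Rag1 at 9.86, where all other arrays had means of 2.54 to 3.19. WT adult 1 had epicardial and mesothelial markers at 7.06, against 5.16 and 5.56 in the other WT adults. The part of these differences in the results below was not tested beyond leaving out arrays.

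Of the 35 subunits, 33 passed the filter on dim probe sets, which asked that the third highest of the 12 values exceed 3.35, the median of all log2 signals. The other 2, Ndufb4 and Ndufa4l2, were not tested. Ndufb4, a subunit of the distal membrane arm, averaged 2.20 to 2.28 over the 4 groups on a probe set near background. Ndufa4l2 averaged 1.39 to 1.76. The 33 tested subunits were among the brightest features of these hearts. Apart from Ndufb1 (72.3rd percentile), their means lay at the 97.6th percentile of all probe sets or above, with Ndufa1 highest at 14.67 and Ndufb1 lowest at 6.77. Signals reached at most 15.9 on these arrays, and differences between such bright signals may be understated. Levels of different probe sets are not compared with each other.

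**Figure D1:**
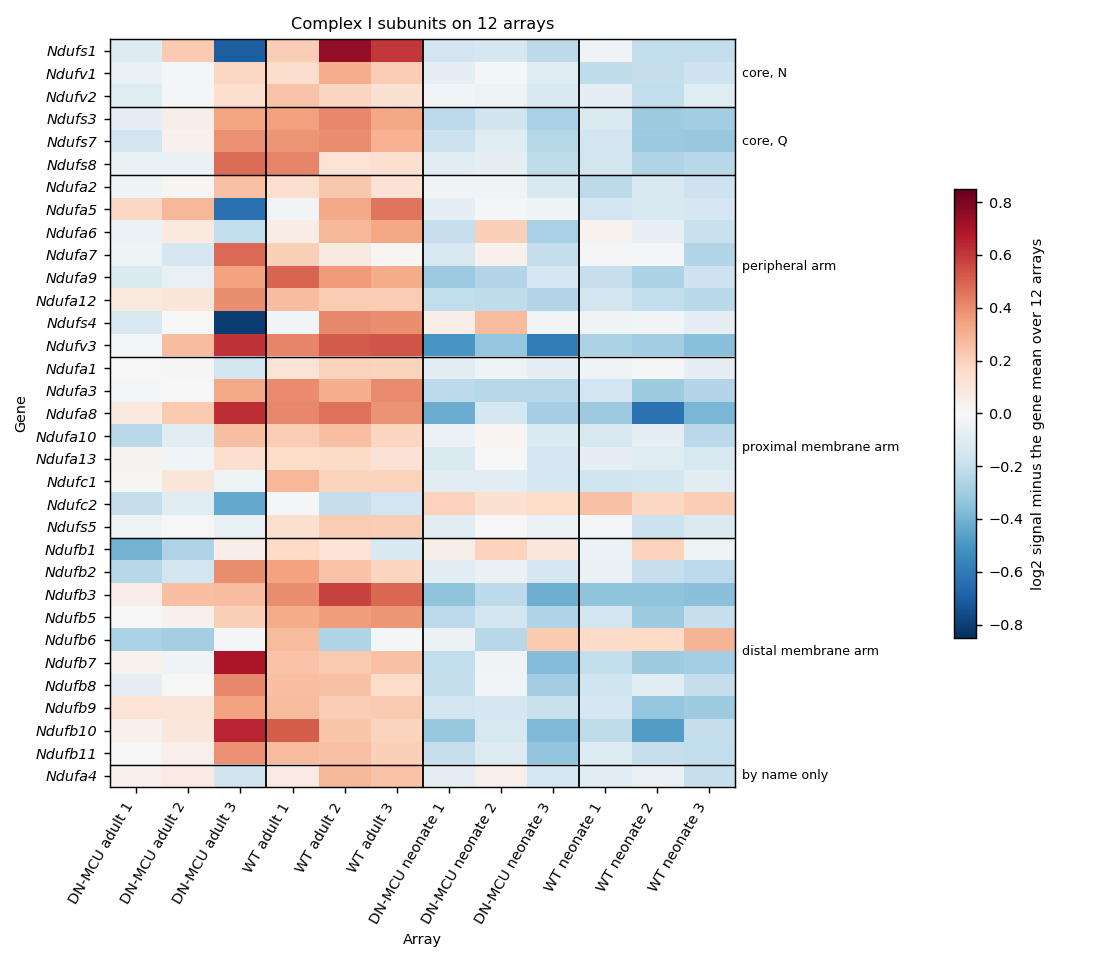
Log2 signal of the 33 tested subunits on each of the 12 arrays (columns), shown as the difference from the gene's own mean over all arrays (colour scale, log2 units) and grouped by position in the complex (rows). WT adults are mostly red and both neonatal groups mostly blue, DN-MCU adults 1 and 2 are paler than WT adults, and DN-MCU adult 3 holds both the deepest blue cells (Ndufs4, Ndufs1, Ndufa5) and several of the deepest red ones.

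The first comparison asked whether complex I transcripts differed between DN-MCU and WT hearts in adults. No subunit passed in limma at an adjusted p under 0.05, with 0 higher and 0 lower among 33, and 5 had an unadjusted p under 0.05. Over all 11804 genes tested, 3.41% were called higher and 1.69% lower. The differences were small and nearly all of one sign. In DN-MCU adults 32 of 33 subunits lay below WT adults, with a median log2 difference of -0.20, where the median over all genes was 0 and 5871 of 11804 genes were negative. The range ran from -0.72 to 0.01. The 33 subunits share the same 6 arrays, so their signs are not independent observations. Of the 19 genes with several tested probe sets, 12 had the same sign on all of them in this comparison, while Ndufa3, Ndufa7, Ndufb2, Ndufb7, Ndufc2, Ndufs4 and Ndufs8 did not. For Ndufa3, Ndufb2, Ndufc2 and Ndufs4 only the dimmest probe set, averaging 5.08, 3.69, 3.48 and 3.58, was not negative. In whole-heart RNA, fewer cells of a type and less RNA per cell cannot be told apart. Endothelial markers moved the same way, averaging 8.94 to 9.15 in DN-MCU adults, against 9.26 to 9.34 in WT adults. Of these 8 genes 7 were negative with a median of -0.24, and 0 passed in limma. An unadjusted p under 0.05 was reached by 3, namely Tie1 (-0.60, SE 0.18), Kdr (-0.34, SE 0.15) and Tek (-0.33, SE 0.12). The 4 tested adipocyte markers were all negative, with a median of -0.54, and 0 passed. Epicardial and mesothelial markers were negative for 7 of 8 genes, with a median of -0.52, and 0 passed. Cardiomyocyte markers were negative for 8 of 11 (median -0.05) and fibroblast markers for 5 of 8 (median -0.07), and 0 passed. The part of these markers in the differences of the subunits was not tested.

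The core of the N module showed the largest single difference. Ndufs1, which holds iron-sulfur clusters of the electron path, read 12.98, 13.31 and 12.39 in DN-MCU adults, against 13.30, 13.84 and 13.69 in WT adults. The groups overlapped by 1 array on each side, since DN-MCU adult 2 lay just above WT adult 1. The log2 difference was -0.72 (SE 0.22, 95% interval -1.21 to -0.23, limma adjusted p = 0.105). Ndufv1, which binds NADH and the flavin cofactor, read 14.11, 14.15 and 14.34 in DN-MCU adults, against 14.31, 14.47 and 14.38 in WT adults (-0.19, SE 0.12). Ndufv2, the iron-sulfur partner of Ndufv1, differed by -0.18 (SE 0.12). Neither of these passed, and the median of the N core was -0.19.

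In the core of the Q module the values split by array. Ndufs3 read 13.48, 13.61 and 13.90 in DN-MCU adults, against 13.91, 13.97 and 13.89 in WT adults (-0.26, SE 0.13). Ndufs7, which carries the last iron-sulfur cluster before ubiquinone, read 13.61, 13.81 and 14.16 in DN-MCU adults, against 14.15, 14.17 and 14.07 in WT adults (-0.27, SE 0.15). For both genes DN-MCU adults 1 and 2 lay below every WT adult and DN-MCU adult 3 lay among them. Ndufs8, another iron-sulfur subunit, read 14.57, 14.57 and 15.10 in DN-MCU adults, against 15.04, 14.74 and 14.76 in WT adults (-0.11, SE 0.16). DN-MCU adult 3 was here the highest of the 6 adult arrays. The median of the Q core was -0.26.

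Among the 8 accessory subunits of the peripheral arm the median difference was -0.24. Ndufs4, which sits where the N and Q modules meet and whose loss in mice causes a Leigh-like encephalopathy, had the next largest difference after Ndufs1 on its brightest probe set. It read 11.91, 12.04 and 11.24 in DN-MCU adults, against 12.02, 12.45 and 12.44 in WT adults (-0.58, SE 0.21, 95% interval -1.04 to -0.11, limma adjusted p = 0.172). Ndufa9, a Q module subunit that binds a nucleotide cofactor, read 13.80, 13.85 and 14.26 in DN-MCU adults, against 14.41, 14.28 and 14.23 in WT adults (-0.34, SE 0.14, limma adjusted p = 0.241). Ndufa5 and Ndufa6 differed by -0.31 (SE 0.22) and -0.28 (SE 0.16), while Ndufa12 (-0.03) and Ndufa7 (0.01) were near 0. All of these groups overlapped.

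The membrane arm gave the subunits whose groups did not overlap. In 5 of 33 subunits all 3 DN-MCU adults lay below all 3 WT adults, namely Ndufa1, Ndufs5 and Ndufc1 of the proximal part and Ndufb3 and Ndufb5 of the distal part, where 8.14% of all genes tested showed that separation. Ndufs5, a subunit on the intermembrane side, read 13.21, 13.25 and 13.19 in DN-MCU adults, against 13.39, 13.47 and 13.46 in WT adults (-0.22, SE 0.11, limma adjusted p = 0.323). Ndufa1, a small X-linked subunit, read 14.67, 14.68 and 14.52 in DN-MCU adults, against 14.79, 14.87 and 14.86 in WT adults (-0.22, SE 0.11, limma adjusted p = 0.334). The gap between the groups was narrow in both genes, and neither passed.

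Ndufb3 read 12.67, 12.87 and 12.88 in DN-MCU adults, against 13.01, 13.19 and 13.10 in WT adults (-0.29, SE 0.12, 95% interval -0.56 to -0.02, limma adjusted p = 0.23). Ndufb5 read 13.79, 13.83 and 14.00 in DN-MCU adults, against 14.11, 14.15 and 14.17 in WT adults (-0.27, SE 0.11, limma adjusted p = 0.24). Ndufc1 differed by -0.20 (SE 0.11). The 8 proximal subunits had a median of -0.21 and the 10 distal ones of -0.15. Of the distal subunits, Ndufb7 (0.00, SE 0.19), Ndufb9 (-0.05, SE 0.12) and Ndufb10 (-0.06, SE 0.18) lay closest to 0. Ndufa4, the subunit matched by name only, differed by -0.22 (SE 0.13).

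**Figure D2:**
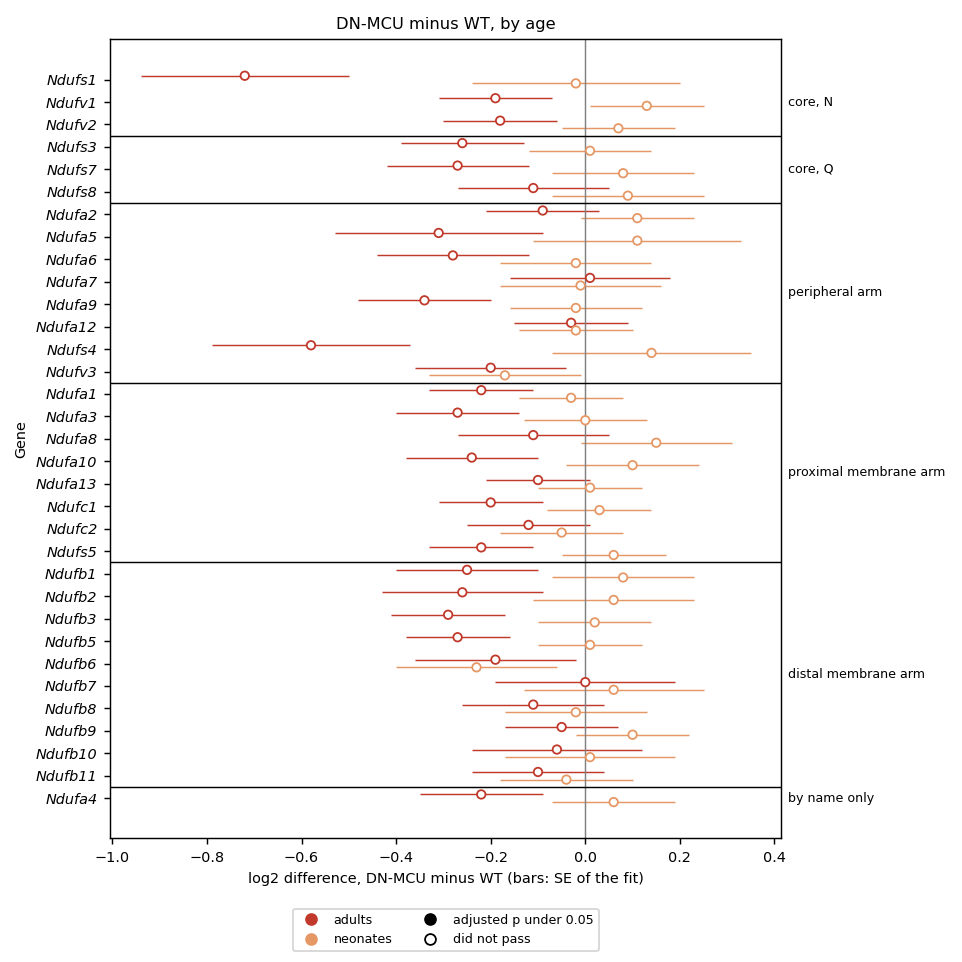
Log2 difference, DN-MCU minus WT, of each of the 33 tested subunits in adults (red) and in neonates (orange), with bars of 1 standard error of the fit. All points are open, since none passed, and the adult points lie mostly left of 0 with Ndufs1 (-0.72) and Ndufs4 (-0.58) farthest out, while the neonatal points lie on both sides between -0.23 and 0.15.

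The 3 DN-MCU adults did not show the same picture. Set against the WT adults gene by gene, 32 of 33 subunits in DN-MCU adult 1 and 27 in DN-MCU adult 2 lay below the lowest WT adult and 0 above the highest. In DN-MCU adult 3, 11 lay below the lowest WT adult and 13 above the highest. The median deviation from the WT adult mean was -0.28, -0.22 and -0.01 in DN-MCU adults 1, 2 and 3. The median SD of a subunit was 0.215 in DN-MCU adults, against 0.0578 in WT adults, 0.0708 in DN-MCU neonates and 0.0692 in WT neonates.

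DN-MCU adult 3 moved the subunits both ways. Against the mean of the other DN-MCU adults, 24 subunits were higher in it and 9 lower. The lower ones were led by Ndufa5 (-0.86), Ndufs1 (-0.76) and Ndufs4 (-0.74), and the higher ones by Ndufb7 (0.70), Ndufb2 (0.59) and Ndufa7 (0.58). WT adult 1 departed from the other WT adults in a like order, with Ndufs1 at -0.46 and Ndufa5 and Ndufs4 at -0.42 each. Across the 33 subunits these departures of the 2 arrays had a Pearson correlation of 0.74, given as a description since the subunits are not independent.

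Without DN-MCU adult 3, 4 subunits passed and were lower in DN-MCU adults. They were Ndufa9 (-0.48, limma adjusted p = 0.0232), Ndufb2 (-0.45, adjusted p = 0.0307), Ndufa3 (-0.37, adjusted p = 0.0478) and Ndufs7 (-0.42, adjusted p = 0.0492), and the median over 33 was -0.26. Without DN-MCU adult 2, Ndufs1 passed (-0.93, limma adjusted p = 0.03), and without DN-MCU adult 1 none did and the median was -0.14. Over the 6 fits that each left out 1 adult array, Ndufs1 ran from -0.93 to -0.47. It passed in 1 of them, with limma adjusted p up to 0.313. In a setting chosen after the data were seen, DN-MCU adult 3 and WT adult 1 were left out together, and 5 passed as lower. These were Ndufs1 (-0.62, limma adjusted p = 0.0201), Ndufa9 (-0.43), Ndufb2 (-0.41), Ndufs4 (-0.47) and Ndufa3 (-0.36). Which subunits passed therefore varied with the array left out. The share of all genes called in each of these fits is not given here, so these counts are not set against it.

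**Figure D3:**
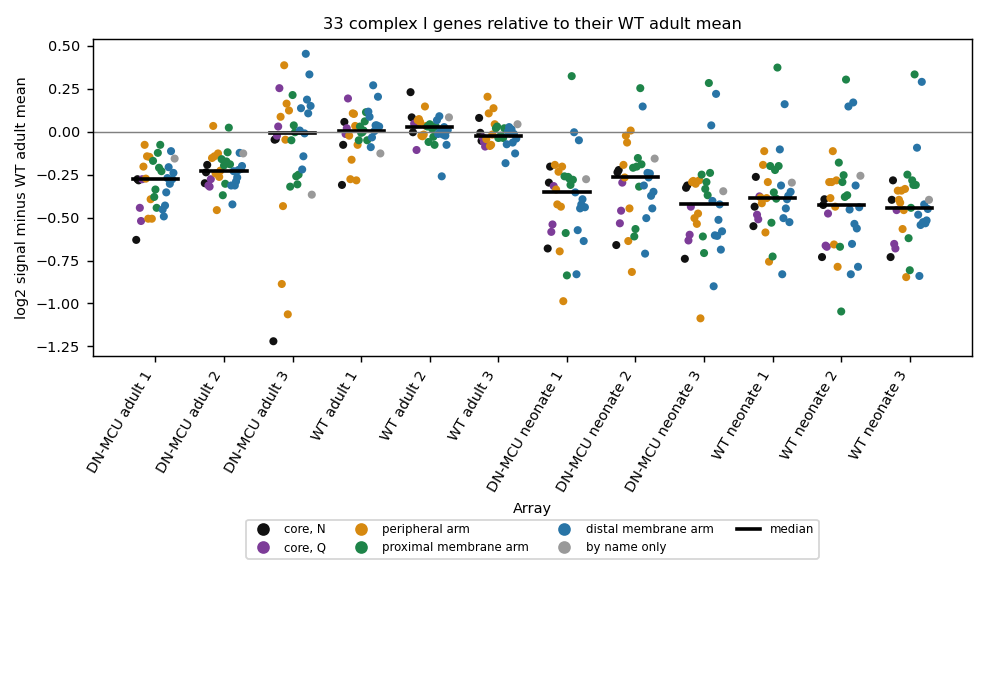
Log2 signal of each of the 33 tested subunits on each array minus that gene's mean over the 3 WT adults, coloured by position in the complex, with a black bar at the median of each array. DN-MCU adults 1 and 2 form compact clouds with medians of -0.28 and -0.22, DN-MCU adult 3 spreads widely around a median of -0.01, and the 6 neonatal arrays have medians between -0.44 and -0.26.

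Ndufs4 was read by 4 probe sets, and 1 of them passed. The dimmer probe set 1418117_at read 6.66, 6.83 and 6.70 in DN-MCU adults, against 7.74, 7.95 and 8.30 in WT adults. The groups did not overlap, and DN-MCU adult 3 lay between the other DN-MCU adults. The log2 difference was -1.26 (SE 0.16, limma adjusted p = 0.00172), or 2.40-fold lower in DN-MCU adults. Of the 73 probe sets of these genes 68 were tested, and this was the only 1 to pass in a genotype comparison. Over all 24176 probe sets tested, 681 were called higher and 471 lower in DN-MCU adults. A single call among the 68 is near the share called lower over all probe sets. The probe set 1418117_at was singled out after its values were seen.

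The other probe sets of Ndufs4 told less. The brightest gave -0.58, as above, and 1438166_x_at gave -0.53 (SE 0.20, limma adjusted p = 0.185) with overlapping groups. The faintest, 1459760_at, gave 0.13 (SE 0.33) at signals around the filter level. The stretch of transcript that each of them reads is not stated in the files. The change at 1418117_at stayed called without any 1 adult array, between -1.39 and -1.11, but in a limma fit of the 6 adult arrays only it did not pass (adjusted p = 0.0792).

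At 1418117_at the 42-day WT hearts were the group that stood apart. That probe set was singled out on its adult values. Its age differences, and the difference between them, reuse those adult arrays and are no further support. DN-MCU neonates read 6.59, 6.27 and 6.60, against 6.65, 6.51 and 6.58 in WT neonates, a difference of -0.09 (SE 0.16). All 9 arrays other than the WT adults lay between 6.27 and 6.83. In WT hearts the adults were 1.41 above the neonates (SE 0.16, limma adjusted p = 5.67e-05), and in DN-MCU hearts 0.24 (SE 0.16, adjusted p = 0.242). The difference between these age effects, which equals the difference between the genotype effects at both ages, was -1.17 (SE 0.23) and did not pass (limma adjusted p = 0.0509). The adjusted p moved to both sides of the threshold under the alternatives. It was 0.0471 with array medians subtracted and 0.00723 with array weights. Leaving out an adult array gave 0.0341 for DN-MCU adult 3, 0.0488 for DN-MCU adult 2 and 0.0318 for WT adult 1, and leaving out the first and last of these together gave 0.0148. The adjusted p was 0.072 after quantile normalization, 0.0553 with no filter, 0.129 with the replicate block of the neonates, 0.189 with the block within age, and 0.0623 to 0.162 without any other single array.

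**Figure D4:**
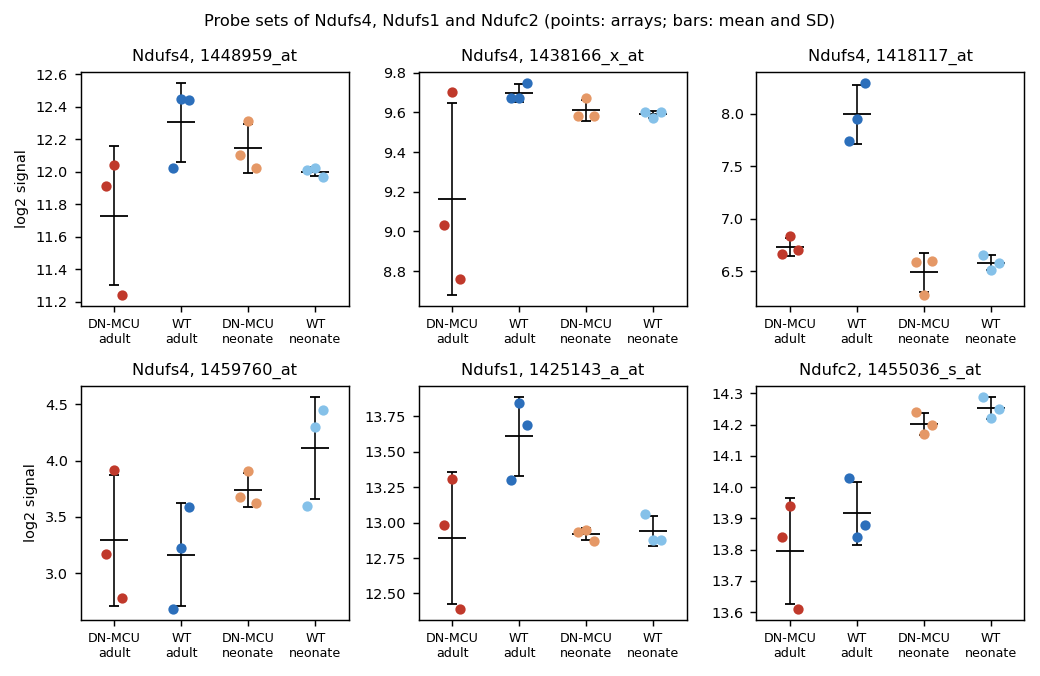
Log2 signal on each array (points) with the group mean and SD (black bars) for the 4 probe sets of Ndufs4, the probe set of Ndufs1 and the brightest probe set of Ndufc2, each panel with its own axis. At 1418117_at the 3 WT adults lie at 7.74 or above and the other 9 arrays at 6.83 or below, and for Ndufc2 both adult groups lie below both neonatal groups.

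Genes around complex I were described for comparison. Of 17 assembly factors measured in adults, 0 passed in either direction in limma, 2 had an unadjusted p under 0.05, and 13 were negative with a median of -0.14. Tmem70, which helps build the membrane arm, differed by -0.80 (SE 0.33, limma adjusted p = 0.235) and Ndufaf1, a factor of the membrane arm intermediates, by -0.56 (SE 0.18, adjusted p = 0.113). The mitochondrially encoded core subunit ND5 differed by -0.11 (SE 0.12) and Ndufab1, the acyl carrier protein of the complex, by -0.12 (SE 0.11). Among 40 subunits of complexes II to V the median was -0.10 and 33 were negative, so the prevailing sign was not particular to complex I. In 13 of the 40 all DN-MCU adults lay below all WT adults, where 8.14% of all genes tested did. The 4 subunits of complex II had a median of -0.37. Of the 40, 0 were called lower and 2 higher, the cytochrome oxidase subunits Cox8a (1.10, SE 0.20) and Cox6a1 (0.73, SE 0.13), both outside complex I. In a list of 6 genes of other routes of electrons to ubiquinone and of NADH use, 1 fell, Etfdh (-0.78, SE 0.18, limma adjusted p = 0.033), which hands electrons from fatty acid oxidation to ubiquinone.

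In neonates the same comparison showed no shift of the subunits. None of 33 passed in limma, and 0 had an unadjusted p under 0.05, where 0.0169% of all genes tested were called higher and 0.00847% lower. The median was 0.02 (0.03 over all genes), with 21 subunits positive and 12 negative. The sign was the same on all tested probe sets for 8 of the 19 genes that had several. Ndufv1 read 14.09, 14.15 and 14.06 in DN-MCU neonates, against 13.95, 13.96 and 13.99 in WT neonates (0.13, SE 0.12, 95% interval -0.12 to 0.39). It was 1 of 2 subunits, with Ndufa5 (0.11, SE 0.22), in which all DN-MCU neonates lay above all WT neonates, where 9.13% of all genes did. Ndufb6, a distal membrane arm subunit, had the largest difference, with 14.20, 14.01 and 14.47 in DN-MCU neonates, against 14.41, 14.42 and 14.54 in WT neonates (-0.23, SE 0.17). Its groups overlapped.

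The other core subunits of neonates lay close together. Ndufs1 read 12.93, 12.95 and 12.87 in DN-MCU neonates, against 13.06, 12.88 and 12.88 in WT neonates (-0.02, SE 0.22, 95% interval -0.52 to 0.47). Ndufs7 (0.08, SE 0.15), Ndufs8 (0.09, SE 0.16), Ndufv2 (0.07, SE 0.12) and Ndufs3 (0.01, SE 0.13) also did not pass, nor did Ndufa4 (0.06, SE 0.13). For 24 of 33 subunits the 95% interval of the neonatal difference held the adult difference, so for these the neonatal test does not show that the genotypes were alike. For the other 9, Ndufa9, Ndufa10, Ndufb3, Ndufb5, Ndufs1, Ndufs4, Ndufs5, Ndufs7 and Ndufv1, the adult difference lay below that interval.

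Whether the genotype difference itself differed between the ages was tested as an interaction. None of 33 subunits passed in limma and 2 had an unadjusted p under 0.05, where 0.712% of all genes tested were called higher and 0.237% lower. The adult difference minus the neonatal one was negative for 31 of 33, with a median of -0.26 (-0.03 over all genes). Ndufs4 (-0.72, SE 0.30, limma adjusted p = 0.475) and Ndufs1 (-0.70, SE 0.31, adjusted p = 0.541) had the smallest p, followed by Ndufv1 (-0.32, SE 0.16, adjusted p = 0.623). The adult and neonatal differences are therefore not shown to differ for any single subunit.

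Age gave the clearest differences among the subunits. In WT hearts 18 of 33 subunits were called higher in adults than in neonates and 0 lower in limma, where 17.2% of all genes tested were called higher and 27.8% lower, and 26 of the 33 had an unadjusted p under 0.05. The count called higher was 11 to 13 without any 1 array of this comparison, with 11 without WT neonate 2, and 10 higher and 1 lower with array medians subtracted. The median log2 difference was 0.41, against -0.16 over all genes. Scaling moved that reference, since the median over all genes was -0.10 after quantile normalization and -0.29 with array medians subtracted, when the median of the subunits was 0.28. In 30 of 33 subunits all WT adults lay above all WT neonates, where 25.6% of all genes did. The WT adults enter both this comparison and the adult genotype comparison, so their results are not independent.

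Of the 6 core subunits 5 were called higher. With each of the 6 WT arrays left out in turn, Ndufs3 and Ndufs7 passed every time and Ndufv1 in 5 of 6 fits, while Ndufs1 passed in 2 (adjusted p 0.0178 to 0.107 in limma) and Ndufv2 in 0 (adjusted p 0.0745 to 0.136). Ndufs1 read 13.30, 13.84 and 13.69 in WT adults, against 13.06, 12.88 and 12.88 in WT neonates (0.67, SE 0.22, limma adjusted p = 0.0299). Ndufs7 read 14.15, 14.17 and 14.07 in WT adults, against 13.62, 13.46 and 13.45 in WT neonates (0.62, SE 0.15, adjusted p = 0.0065 in limma). The groups were separate in both. Ndufs3 rose by 0.60 (SE 0.13), Ndufv1 by 0.42 (SE 0.12) and Ndufv2 by 0.32 (SE 0.12). Ndufs8 differed by 0.44 (SE 0.16) and did not pass (limma adjusted p = 0.0501).

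The accessory subunits with the largest age differences lay in different modules. Ndufb3 of the distal membrane arm read 13.01, 13.19 and 13.10 in WT adults, against 12.27, 12.27 and 12.26 in WT neonates (0.83, SE 0.12, limma adjusted p = 0.000272), or 1.78-fold higher. Ndufa8, a subunit on the intermembrane side of the proximal membrane arm, read 13.59, 13.64 and 13.56 in WT adults, against 12.87, 12.55 and 12.79 in WT neonates (0.86, SE 0.16), or 1.81-fold higher. Ndufv3, a small N module subunit, read 14.52, 14.63 and 14.64 in WT adults, against 13.84, 13.81 and 13.75 in WT neonates (0.80, SE 0.16). In each of these the groups were far apart relative to the spread within them. Called higher were 4 of 8 peripheral accessory, 4 of 8 proximal and 5 of 10 distal subunits, with medians of 0.37, 0.33 and 0.45. Ndufa4 differed by 0.32 (SE 0.13, limma adjusted p = 0.0619).

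Ndufc2, a small subunit of the proximal membrane arm, went the other way. It read 14.03, 13.84 and 13.88 in WT adults, against 14.29, 14.22 and 14.25 in WT neonates, and every adult lay below every neonate. The difference of -0.33 (SE 0.13) did not pass on this probe set (limma adjusted p = 0.0508), while another probe set of the gene, 1460506_s_at, did (-0.59, SE 0.15, adjusted p = 0.00705 in limma). Ndufb6 differed by -0.21 (SE 0.17) with overlapping groups, and its other probe set gave 0.20 (SE 0.11). Of the 19 genes with several tested probe sets, 15 had the same sign on all of them in WT hearts with age, and Ndufa3, Ndufb6, Ndufc2 and Ndufs4 did not. In DN-MCU hearts with age the number was 12. In WT hearts the disagreement within Ndufa3, Ndufc2 and Ndufs4 came from the dimmest probe set of each alone.

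In DN-MCU hearts fewer subunits passed. In adults against neonates, 7 of 33 were called higher and 1 lower in limma, where 17.6% of all genes tested were called higher and 29.1% lower. The number called higher was thus near the share over all genes, and the number called lower was below it. The counts were 3 higher and 0 lower without DN-MCU neonate 1, 4 and 0 without DN-MCU neonate 3, and 2 and 0 in a fit of the DN-MCU arrays alone. The median was 0.14, against -0.17 over all genes, and with array medians subtracted it turned to -0.01, against -0.32 over all genes. In 13 of 33 subunits all adults lay above all neonates, where 21.7% of all genes did. This count and that for WT hearts rest on different arrays, and the difference between the age effects is the interaction given above, in which no subunit passed.

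The subunits that rose with age in DN-MCU hearts were Ndufv3, Ndufb3, Ndufa8, Ndufa12, Ndufb10, Ndufb9 and Ndufa3. With each DN-MCU array left out in turn, Ndufv3, Ndufb3 and Ndufa12 passed in all 6 fits and Ndufa8 in 5, Ndufb9 and Ndufb10 in 3 each, and Ndufa3 in 2. They are all 7 called in DN-MCU hearts and 7 of the 18 called higher in WT hearts. Ndufv3 read 14.09, 14.37 and 14.72 in DN-MCU adults, against 13.61, 13.78 and 13.51 in DN-MCU neonates (0.76, SE 0.16, limma adjusted p = 0.00318). Ndufb3 read 12.67, 12.87 and 12.88 in DN-MCU adults, against 12.27, 12.39 and 12.20 in DN-MCU neonates (0.52, SE 0.12, adjusted p = 0.00527 in limma). Both groups of arrays were separate for each gene. Ndufc2 fell (-0.41, SE 0.13, limma adjusted p = 0.0216), with 13.84, 13.94 and 13.61 in DN-MCU adults, against 14.24, 14.17 and 14.20 in DN-MCU neonates.

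Of the 6 core subunits 0 passed in either direction in DN-MCU hearts, where 17.6% of all genes tested were called higher and 29.1% lower. Ndufs1 read 12.98, 13.31 and 12.39 in DN-MCU adults, against 12.93, 12.95 and 12.87 in DN-MCU neonates (-0.02, SE 0.22), and DN-MCU adult 3 lay below all of the neonates. Ndufs4 had a difference of -0.42 (SE 0.21, limma adjusted p = 0.129) on its brightest probe set, with DN-MCU adult 3 again the lowest. Ndufs3 (0.32, SE 0.13), Ndufs7 (0.26, SE 0.15) and Ndufs8 (0.24, SE 0.16) had positive differences, and Ndufv1 (0.10, SE 0.12) and Ndufv2 (0.07, SE 0.12) were nearer 0.

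**Figure D5:**
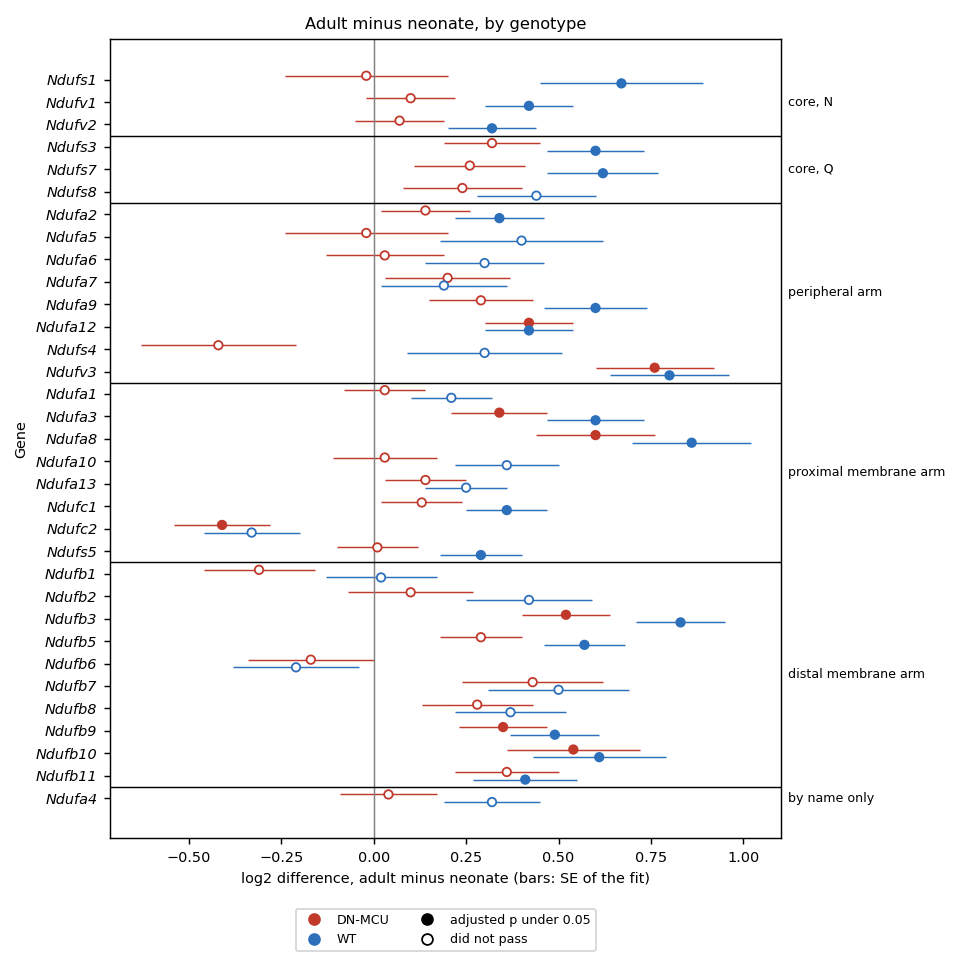
Log2 difference, adult minus neonate, of each of the 33 tested subunits in DN-MCU hearts (red) and in WT hearts (blue), with bars of 1 standard error of the fit and filled points for an adjusted p under 0.05. In WT hearts 18 points are filled and 31 lie right of 0, in DN-MCU hearts 8 are filled, and Ndufc2 lies left of 0 in both.

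The genes around the complex were mixed with age. Of 17 assembly factors in WT hearts, 5 were higher in adults and 2 lower, with a median of 0.25, where 17.2% of all genes were called higher and 27.8% lower. Tmem126b (1.03, SE 0.33), Ecsit (0.97, SE 0.25) and Ndufaf1 (0.82, SE 0.18), which act together in building the membrane arm, rose, as did Foxred1 and Tmem186. Ndufaf6, needed for the Q module, fell (-0.79, SE 0.19), as did Dmac1 (-0.49, SE 0.15). In DN-MCU hearts 1 of the 17 was higher, Tmem126b (0.90, SE 0.33), and 3 were lower, Ndufaf6 (-1.09, SE 0.19), Acad9 (-1.04, SE 0.30), a partner of Ecsit and Ndufaf1, and Dmac1 (-0.52, SE 0.15), where the shares over all genes were 17.6% and 29.1%.

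ND5 was higher in adults in both genotypes, by 0.42 (SE 0.12) in DN-MCU hearts and by 0.52 (SE 0.12) in WT hearts, and Ndufab1 passed in WT hearts (0.36, SE 0.11). Among 40 subunits of complexes II to V, 11 were called higher and 1 lower in DN-MCU hearts (median 0.07), and 13 higher and 2 lower in WT hearts (median 0.22). Cell type markers moved with age too. Adipocyte markers averaged 5.24 to 8.63 in DN-MCU adults and 7.03 to 8.06 in WT adults, against 4.25 to 4.29 in DN-MCU neonates and 4.23 to 4.29 in WT neonates. Of the 4 tested, 3 were called higher with age in both genotypes, namely Adipoq (7.97 in DN-MCU hearts and 8.46 in WT hearts), Cidec (3.42 in DN-MCU hearts and 3.85 in WT hearts) and Ucp1, a mitochondrial protein of brown fat (6.03 in WT hearts). The remaining marker, Fabp4, was negative (-1.02 in DN-MCU hearts and -0.19 in WT hearts) and did not pass. Epicardial and mesothelial markers averaged 5.22 to 5.75 in DN-MCU adults and 5.16 to 7.06 in WT adults, against 6.81 to 8.28 in neonates. Fibroblast markers averaged 10.92 to 11.94 in adults of both genotypes, against 12.25 to 12.64 in neonates, but did not move together. Of these 8 genes in WT hearts 5 were called lower with age and 2 higher, Dcn (1.30, SE 0.20) and Pdgfra (0.80, SE 0.17). In DN-MCU hearts 4 were called lower and 2 higher. The part of these cell type markers in the age differences of the subunits was not tested.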

How the data were processed

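Whole-heart RNA (500 ng per sample) was read on Affymetrix 3′ expression arrays after biotin labelling, according to the labels. The authors deposited 1 table of log2 signals, normalized between arrays by a method that the sources used here do not name. The log scale was read off the values. Partek appears in the submitters' processing notes without a stated role. Everything else was derived from these values as deposited. Of 45101 probe sets 64 were controls and were removed, and 24176 passed the filter on dim signals. A single gene was annotated for 34958 probe sets, several genes for 932 and no gene for 9211. The reference gene table held the gene IDs of 34754 of them and changed 0 symbols.

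A limma 3.58.1 model (R 4.3.3) with 1 mean for each of the 4 groups was fitted to the 12 arrays, and p-values were adjusted by Benjamini-Hochberg over the 24176 probe sets. Counts per gene use 1 probe set each. The fit was tested on simulated data. The members, gene lists, tests and naming rule were chosen with earlier results of these data known. Named were the core subunits, the 4 smallest p per direction, the subunits with separate groups and those with discordant probe sets, and some further subunits were named after their values were seen. The position of a subunit in the complex is textbook knowledge.

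Same-numbered neonatal arrays of the genotypes deviated together (correlations of 0.133, 0.223 and 0.283), so their numbers were used as blocks in alternative fits. No label explains the number, and deviations from a group's own mean cancel within the group, so these correlations are not independent. The main model held no block, so its neonatal and interaction results do not use this pairing. Adult numbers did not pair the arrays (-0.381, 0.41 and -0.428). Alternatives were quantile normalization, array medians subtracted, no filter, a stricter filter (log2 7.25), array weights, the mean over probe sets, leaving out cross-matching probe sets, only the groups compared, replicate blocks and leaving out arrays.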

Additional observations from a re-analysis of the deposited data

How the results depend on the processing

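The median of the subunits in the adult genotype comparison stayed between -0.26 and -0.14 under every alternative run. The number called lower in DN-MCU adults, 0 in the report, was 2 with no filter, 2 with array weights, 5 without DN-MCU adult 3 and WT adult 1 together, and 0 to 4 without any 1 array. Neonatal and interaction counts were 0 under every alternative. The age comparison in WT hearts called 18 higher and 0 lower. With array medians subtracted it called 10 higher and 1 lower (median 0.28), with array weights 29 and 2, with the 2 arrays left out together 28 and 1, and 1 was lower with no filter, with the stricter filter, with the mean over probe sets and with only the groups compared. Without any 1 array, 11 to 13 were higher and 0 to 1 lower, with 11 without WT neonate 2. The age comparison in DN-MCU hearts called 7 higher and 1 lower. With array medians subtracted it called 3 and 2 and the median turned to -0.01, with the mean over probe sets 11 were higher, with only the groups compared 2 were higher and 0 lower, and 2 were lower with array weights and with the 2 arrays left out together. Without any 1 array, 3 to 9 were higher and 0 to 2 lower, with 3 and 0 without DN-MCU neonate 1, 4 and 0 without DN-MCU neonate 3 and 2 lower without DN-MCU adult 3. Ndufa5 in that comparison, -0.02 in the report, reversed to 0.27 (limma adjusted p = 0.0317) with the 2 arrays left out. For the alternative fits, above and below, the share of all genes called is not given. Their counts are therefore not read as particular to the subunits. The causes were not tested.

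With the replicate number as a block over all 12 arrays, 4 subunits were called higher with age in DN-MCU hearts and 14 in WT hearts. With the block within age or of the neonates alone, 0 passed in the genotype comparisons, and at the Ndufs4 probe set 1418117_at the adjusted p was 0.0205 and 0.00835.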
